A study of Mus musculus with 2 samples.

Results

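The genes described are the olfactory receptors (symbols starting with Olfr) and the vomeronasal receptors of type 1 (Vmn1r) and type 2 (Vmn2r) of the mouse, chosen by symbol in the GENCODE vM21 annotation. There were 1960 such genes on the autosomes (1399 Olfr, 326 Vmn1r and 235 Vmn2r) of 51229 annotated autosomal genes. A gene region was the gene body together with the 1 kb on either side of the transcription start site (TSS). A CpG cytosine was compared when it had at least 5 reads in each of 2 libraries, and 5366 of the 3296992 compared autosomal cytosines lay in a receptor region. Of these, 1988 lay outside the restriction sites used to cut the DNA and form the main set, and 3378 lay inside CCGG or TCGA and are given apart.

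The libraries were made by reduced representation bisulfite sequencing, in which DNA is cut with MspI (at CCGG) and TaqαI (at TCGA), treated with bisulfite and sequenced, so that an unmethylated cytosine reads as T and a methylated one as C. Both came from mouse C3H myoblasts, a commercial stock of muscle precursor cells, which were grown into myotubes in culture and given a small interfering RNA. In the siCon library the RNA was a control, and in the siH19 library it was directed against H19, a long non-coding RNA. DNA was taken 48 h after transfection, and the labels name no other allele or agent in either group. There was 1 library per group, so every test below compares 2 libraries and not 2 conditions, and a difference between cultures and an effect of the knockdown cannot be told apart. Intervals are Wilson 95% intervals for levels and counting-error intervals for differences. They cover counting error only, not the spread between cultures or between the genes and cytosines of a set. The sources used here name no molecular identifiers. Several reads can therefore stem from 1 DNA molecule, and the intervals can be too narrow even for counting error.

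Odorant receptors are G protein-coupled receptors of the nasal epithelium, where each sensory neuron expresses a single allele of a single receptor gene and keeps the rest silent in compacted chromatin. Vmn1r and Vmn2r genes encode pheromone receptors of the vomeronasal organ, the Vmn2r proteins having a long extracellular domain that binds peptides. Most Olfr proteins are read from an uninterrupted coding exon, and the genes lie in large tandem clusters in AT-rich, CpG-poor DNA. The values below are DNA methylation in myotubes, and no expression of these genes was analysed here.

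The receptor regions were poor in CpGs. They held 76810 CpGs in 16.6 Mb, or 4.64 per kb, against 8.51 per kb over the autosomes, and 37.5% of their bases were G or C, against 41.9%. A compared cytosine was present at 3533 of these CpGs (4.60%), against 9.70% of all autosomal CpGs. In the RefSeq promoters of GRCm38.p6 (250 bases before to 50 after a start), 1265 receptor promoters held a median of 1 CpG, against 7 in all 31365 autosomal promoters. No CpG at all was present in 31.1% of receptor promoters and 5.25% of all promoters. CCGG occurred in 5.77% of receptor promoters and 53.5% of all promoters, and TCGA in 8.46% and 22.1%. Of the 1960 receptor genes, 1227 were matched to a promoter by symbol.

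A CpG that many olfactory receptors share within their coding exon lies in the Asp-Arg-Tyr triplet at the end of the third transmembrane segment, where the arginine codon begins with CG. It is shown first because it places measured cytosines at a homologous position in different genes. The triplet was searched on the coding strand, in frame, as GACCGNTAC, GACCGNTAT, GATCGNTAC or GATCGNTAT, and was found in 769 of 1184 Olfr genes with a coding exon (64.9%). Among windows of 939 coding bases, 58.3% of 640 Olfr windows and 1.40% of 24967 windows of other autosomal genes held it in frame. Each line below is the reference sequence of GRCm38 on the coding strand, with the triplet in capitals. The first 8 genes had a compared CpG there outside the restriction sites.
Olfr552 (chr7:102604704-102604748, + strand): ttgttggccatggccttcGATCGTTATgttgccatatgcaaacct
Olfr553 (chr7:102614574-102614618, - strand): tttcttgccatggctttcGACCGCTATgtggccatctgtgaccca
Olfr641 (chr7:104040140-104040184, + strand): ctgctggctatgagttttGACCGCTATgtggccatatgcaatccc
Olfr464 (chr11:87914518-87914562, - strand): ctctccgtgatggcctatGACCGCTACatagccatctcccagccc
Olfr1362 (chr13:21611581-21611625, - strand): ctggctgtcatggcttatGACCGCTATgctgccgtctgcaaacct
Olfr284 (chr15:98340559-98340603, - strand): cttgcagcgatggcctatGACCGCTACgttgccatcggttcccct
Olfr123 (chr17:37795782-37795826, + strand): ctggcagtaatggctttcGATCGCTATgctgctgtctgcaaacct
Olfr1500 (chr19:13828008-13828052, - strand): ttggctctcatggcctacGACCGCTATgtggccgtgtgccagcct

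In other receptors the triplet itself contains a restriction site, since a G after the CG makes CCGG of GACCGG and an A makes TCGA of GATCGA. This was so for 38 and 37 of the 769 triplets. The examples below are Olfr642, cut by MspI at the triplet, and the neighbouring Olfr169, Olfr170 and Olfr171, cut by TaqαI. Olfr169 and Olfr170 were identical over all 45 bases, and each shared 43 of 45 with Olfr171, so their reads may have been assigned between them.
Olfr642 (chr7:104049960-104050004, - strand): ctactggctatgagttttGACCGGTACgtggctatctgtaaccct
Olfr169 (chr16:19566495-19566539, - strand): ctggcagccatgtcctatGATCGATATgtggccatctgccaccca
Olfr170 (chr16:19606280-19606324, - strand): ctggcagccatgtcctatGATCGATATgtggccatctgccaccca
Olfr171 (chr16:19624712-19624756, - strand): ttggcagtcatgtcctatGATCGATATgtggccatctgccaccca

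The stretches of the 3 gene regions called different between the libraries follow, on the strand of the gene, with the compared CpGs outside the restriction sites in capitals. In Olfr464, an intact odorant receptor on chromosome 11, all lay in the coding exon, and the last but 1 of the capitalised CpGs is that of the triplet.
Olfr464 (chr11:87914433-87914719, - strand): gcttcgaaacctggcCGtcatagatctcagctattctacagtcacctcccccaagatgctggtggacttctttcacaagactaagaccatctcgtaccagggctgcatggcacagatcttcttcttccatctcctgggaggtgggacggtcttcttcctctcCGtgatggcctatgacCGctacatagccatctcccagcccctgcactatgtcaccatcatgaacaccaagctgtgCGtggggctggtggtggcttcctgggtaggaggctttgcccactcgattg
Vmn2r78, first stretch (chr7:86938752-86938835, + strand): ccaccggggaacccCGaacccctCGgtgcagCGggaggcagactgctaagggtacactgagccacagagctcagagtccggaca
Vmn2r78, second stretch (chr7:86945478-86945637, + strand): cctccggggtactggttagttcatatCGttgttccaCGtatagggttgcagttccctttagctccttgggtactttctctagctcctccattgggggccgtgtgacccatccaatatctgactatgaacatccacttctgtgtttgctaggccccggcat
Olfr650-ps1, first stretch (chr7:104206045-104206108, + strand): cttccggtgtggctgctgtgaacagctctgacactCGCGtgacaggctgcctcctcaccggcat
Olfr650-ps1, second stretch (chr7:104206610-104206763, + strand): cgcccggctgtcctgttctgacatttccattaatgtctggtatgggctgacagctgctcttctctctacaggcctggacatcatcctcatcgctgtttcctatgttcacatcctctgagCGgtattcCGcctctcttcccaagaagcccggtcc

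The next stretches mark the ends of the range of levels. That of Olfr642 lies in an intron downstream of its start, in soft-masked repeat sequence, and none of the reads at its capitalised CpGs was methylated in siCon. That of Olfr225 lies in its coding exon, where all but the last of the capitalised CpGs were almost fully methylated.
Olfr642 (chr7:104052009-104052149, - strand): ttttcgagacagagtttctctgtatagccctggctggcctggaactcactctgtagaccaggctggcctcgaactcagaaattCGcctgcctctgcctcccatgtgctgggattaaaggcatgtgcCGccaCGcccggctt
Olfr225 (chr11:59613408-59613512, + strand): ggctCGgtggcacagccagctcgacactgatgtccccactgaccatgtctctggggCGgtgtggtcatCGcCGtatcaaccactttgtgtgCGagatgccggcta

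The libraries were of like depth over all cytosines. They held 104999613 (siCon) and 106372792 (siH19) reads summed over cytosines. The median depth was 23 and 22 at the compared autosomal cytosines with the sites included, and 24 and 24 at those outside the sites. Receptor cytosines outside the sites had a median depth of 18 and 17, with 44681 and 44368 reads in all. At 5 reads a single cytosine is known only coarsely, so levels below are summed over cytosines. The 492 receptor cytosines whose shallower library had 4 reads, just outside the minimum, had summed levels of 47.7% and 50.7%, and the 392 with 5 reads, just inside it, had 46.8% and 54.2% (restriction sites included in both). Of the receptor genes, 1158 had a cytosine listed at any depth, 618 had a compared one, 382 had one outside the sites and 115 had at least 5 outside the sites. For 1342 receptor genes no cytosine was compared.

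Receptor regions were methylated at an intermediate to low level in both libraries. The level, that is the share of methylated reads summed over the 1988 cytosines outside the sites, was 32.98% (32.5 to 33.4) in siCon and 34.3% (33.8 to 34.7) in siH19. Cytosines within 50 kb of a receptor gene but in no gene region, 9705 in number, were close to this, at 34.4% and 35.4%. Intergenic cytosines elsewhere, outside CpG islands, were higher at 41.8% and 43.3%, and other gene regions outside islands were higher again at 53.0% and 54.6%. The differences between these sets were larger than their counting intervals in both libraries. Those intervals leave out the spread between genes and cytosines, so whether the sets differ beyond that spread was not tested. Receptor cytosines outside islands, which match the sets outside islands more closely, had 29.4% and 31.3%. Over all 1795680 autosomal cytosines outside the sites, islands included, the level was below that of receptor regions, at 25.4% and 24.9%. Other chemosensory genes (the Taar, Tas1r, Tas2r, Fpr, Gucy2d and Ms4a families) had 33.8% and 32.8% over 251 cytosines.

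The order of islands and other DNA differed between receptor regions and other genes. Islands, which in most genes surround the promoter and are unmethylated, held 487 receptor cytosines with 42.8% (41.9 to 43.7) in siCon, while the 1501 receptor cytosines outside islands had 29.4% (28.9 to 29.9). In other gene regions the island level was 10.7% and the level outside islands 53.0%, so that islands lay above the rest in receptor regions and below it in other genes. The islands of receptor regions and of other genes were not matched for their place in the gene. Among receptor island cytosines in no other gene's region the level was 55.5% (54.3 to 56.6). Soft-masked repeats, which held 973 of the 1988 cytosines, had 37.8% in siCon, and the remaining sequence had 29.8%.

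The 3 families had different levels. Over 1045 cytosines Olfr regions had 34.01% (siCon) and 34.2% (siH19). Over 712 cytosines Vmn2r regions had 38.6% and 43.3%. Over 231 cytosines Vmn1r regions had 13.96% and 15.8%. The Vmn1r value rests on 1 gene: Vmn1r4 held 82 of these cytosines, 81 of them in an island in which its annotated start region overlaps that of Nt5c3, an enzyme of pyrimidine nucleotide breakdown. Without Vmn1r4 the Vmn1r level was 23.4% in siCon, so Vmn1r stayed the lowest in summed level without it. The order of the other families depended on the cytosines kept. Without soft-masked cytosines Olfr had 34.04% and Vmn2r 30.3% in siCon, and in protein-coding genes they had 34.2% and 34.3%.

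**Figure D1:**
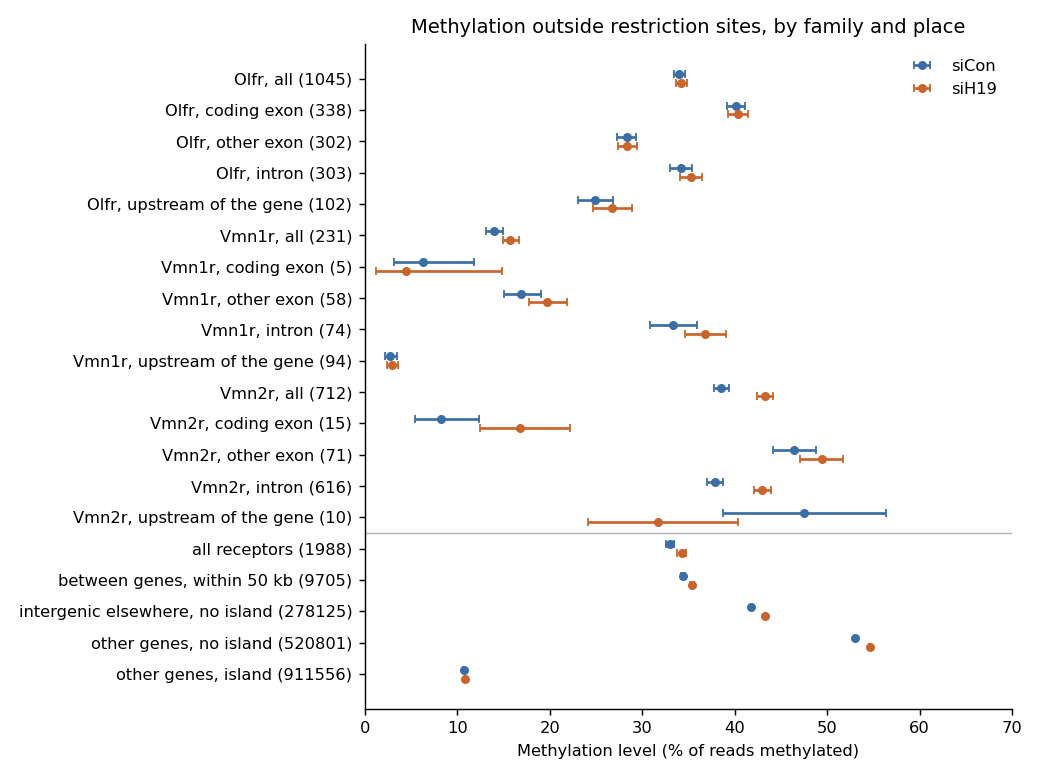
Methylation level (x axis, % of reads methylated) of cytosines outside restriction sites, by receptor family and place above the line and in the rest of the genome below it, with the number of cytosines in brackets. Points are siCon (blue) and siH19 (orange), and bars are Wilson 95% intervals of the reads. Vmn1r upstream DNA sits near 3% and other genes outside islands above 50% in both libraries. Vmn1r4 alone, at 0.673% in siCon, held 81 of the 107 cytosines of Vmn1r start-site windows, which take in the upstream DNA.

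Within Olfr regions the coding exon was the most methylated place. It had 40.1% (siCon) and 40.4% (siH19) over 338 cytosines, introns had 34.2% and 35.3% over 303, other exon sequence 28.3% and 28.4% over 302, and DNA upstream of the gene 24.9% and 26.7% over 102. The window around the TSS had 24.6% and 24.1% over 241 cytosines. Thus the order from coding exon to upstream DNA was the same in both libraries, and each step exceeded the counting intervals in siCon. In Vmn2r regions nearly all cytosines, 616 of 712, were intronic, with 37.9% and 43.0%, and only 15 lay in coding exons, with 8.27% and 16.7%. Vmn2r genes annotated as other than protein-coding had 49.1% in siCon over 245 cytosines, against 34.3% over 467 for the protein-coding ones. For Olfr the same comparison gave 34.5% and 34.2%.

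Single cytosines were spread over the whole range rather than near the family mean. In siCon 37.0% of the 1988 cytosines were under 10% methylated and 12.2% were over 90%, with a median of 22.2% and quartiles of 2.70% and 64.1%. In siH19 the shares were 35.0% and 11.9% and the median was 23.1%. On both strands of the same CpG the level was similar: at 663 CpGs measured on both strands outside the sites, the median absolute difference between strands was 5.56 percentage points in siCon and 5.36 in siH19. A difference between strands within 1 library passed an unadjusted p of 0.05 (two-sided Fisher's exact test) at 4.68% of these CpGs in siCon, and a difference between the libraries did so at 2.26% on the plus strand and 2.41% on the minus strand.

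Cytosines inside the restriction sites did not behave in this way. A site cytosine sits at the end of a fragment, either in the overhang that the enzyme leaves or on the opposite strand, whose end is filled in when the library is made. Where a fragment of 40 to 220 bases lay on only 1 side of the site, overhang cytosines had 16.4% in siCon (1329 cytosines) and filled-in ones 95.1% (1350 cytosines). In siH19 the values were 16.7% and 96.2%. Overhang cytosines had 23.7% at CCGG and 8.66% at TCGA in siCon, and filled-in ones 94.6% and 95.6%. At 1170 site CpGs measured on both strands, the strands differed at an unadjusted p under 0.05 in 83.4% of cases in siCon and 84.3% in siH19, with a median absolute difference of 86.7 points in both. The methods state that filled-in nucleotides were removed before methylation was called, and the part of that step in these values was not tested. For this reason site cytosines enter no level above other than those at the edge of the read minimum.

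**Figure D2:**
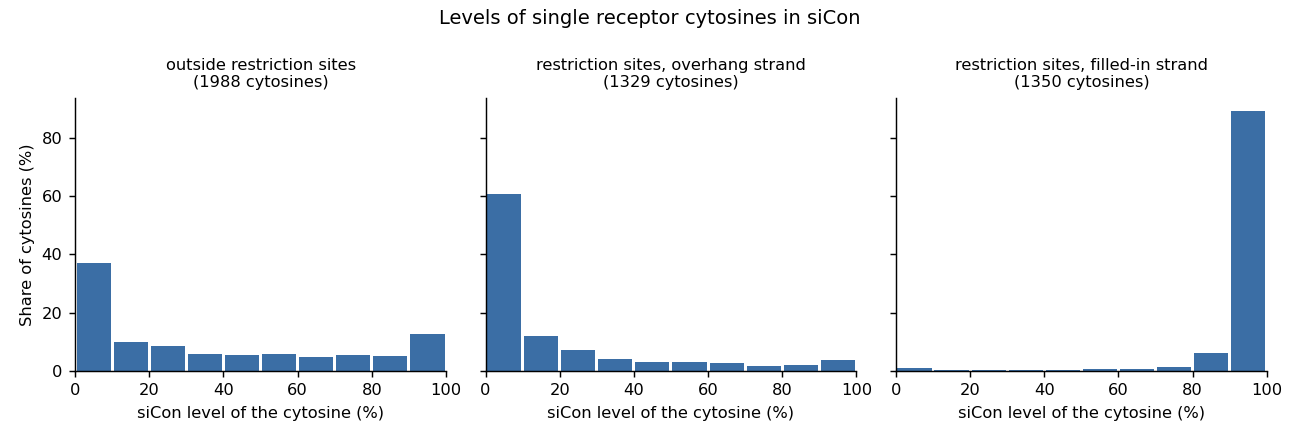
Share of receptor cytosines (y axis, %) by their siCon methylation level in bins of 10 points (x axis, %), outside restriction sites (1988 cytosines), on the overhang strand of sites (1329) and on the filled-in strand of sites (1350). Cytosines outside sites spread over all levels, while 60.6% of overhang cytosines were under 10% and 89.3% of filled-in ones were in the top bin.

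At the triplet of the 8 genes printed first, the level differed greatly from gene to gene at the same codon. In Olfr641, a class I receptor of the chromosome 7 cluster, 0 of 12 reads on the plus strand and 0 of 14 on the minus strand were methylated in siCon, and 0 of 18 and 1 of 11 in siH19. A count of 0 of 12 allows a level of up to 24.2% (Wilson). Its cluster neighbours were similar: Olfr552 had 1 of 20 reads in siCon and 0 of 27 in siH19, and Olfr553 had 0 of 22 and 1 of 12.

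In Olfr284, on chromosome 15, the same codon was almost fully methylated. The plus strand had 48 of 55 reads in siCon and 34 of 37 in siH19, and the minus strand had 31 of 33 and 28 of 30. Olfr1500 lay between, with 26 of 45 and 8 of 16 reads in siCon and 3 of 7 and 4 of 9 in siH19. Olfr1362 had 7 of 30 and 6 of 13. Olfr123 had 2 of 9 and 4 of 17 reads on its strands in siCon and 3 of 23 and 5 of 29 in siH19.

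In Olfr464 the triplet had 34 of 79 reads methylated (43.0%) in siCon and 5 of 38 (13.2%) in siH19, the only one of these with an unadjusted p under 0.05 (Fisher's exact test; adjusted p = 0.241 over all compared autosomal cytosines). Summed over the 12 triplet cytosines outside sites the level was 45.7% in siCon and 35.4% in siH19, beside 39.9% and 40.5% at the 326 other coding cytosines of Olfr genes. With each cytosine compared with itself the triplet difference was -4.87 points (-10.9 to 1.18), an interval that includes 0. Where the triplet was itself a site, the overhang cytosines of Olfr169, Olfr170 and Olfr171 had 2 of 62, 3 of 53 and 3 of 50 reads in siCon and 0 of 19, 0 of 17 and 0 of 15 in siH19. The overhang cytosine of Olfr642 had 1 of 33 and 2 of 24, while its partner on the filled-in strand had 8 of 8 and 20 of 20. These examples were the lowest in siCon of the 11 overhang triplet cytosines. All 11 together had 17.3% in siCon and 21.7% in siH19, with a siCon median over cytosines of 28.4%. The highest in siCon was Olfr47, with 8 of 10 reads and 10 of 15 in siH19.

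Receptor genes are clustered, and the clusters differed in level. Joining receptor genes at gaps of up to 1 Mb gave 34 clusters of at least 10 genes, with 1826 genes, of which 29 had at least 10 compared cytosines in receptor regions. In siCon the receptor regions of these clusters ranged from 3.15% to 69.2%, with a median of 27.9%, and the DNA between genes in the same clusters from 17.0% to 58.8%, with a median of 34.9%. Receptor regions were below the DNA between genes in both libraries in 14 of the 29 clusters and above it in both in 8, so the genes had no common direction relative to their surroundings.

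The largest well-covered Olfr cluster on chromosome 7 (chr7:102476579-105369355), with 156 Olfr genes around 7 beta-globin genes, had 18.5% (17.1 to 19.9) in siCon and 23.0% in siH19 over 143 cytosines. The DNA between its genes had 26.3% and 31.5%. The largest of all, on chromosome 2 (chr2:85330779-90403897) with 287 Olfr genes, had 21.8% and 29.8% over 97 cytosines, beside 23.9% and 27.3% between genes. At the low end, 37 Olfr genes at chr2:36284023-37332772 had 3.15% and 10.7% over 11 cytosines, while the DNA between them had 32.6% and 32.3%.

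At the high end, 19 Olfr genes at chr11:48977889-49565859 had 69.2% (66.2 to 72.1) and 70.98% over 39 cytosines, above the 49.9% and 43.6% between genes. Other clusters also stood above their surroundings in both libraries, among them 26 Olfr genes at chr11:58454105-59615060 with 55.5% and 55.8% (32.8% and 35.5% between genes), and 14 Vmn2r genes with 1 Olfr gene at chr17:22544504-23493471 with 55.3% and 58.9% (34.9% and 35.8%). These levels are sums over few genes in each cluster, since reads fall only near restriction sites.

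**Figure D3:**
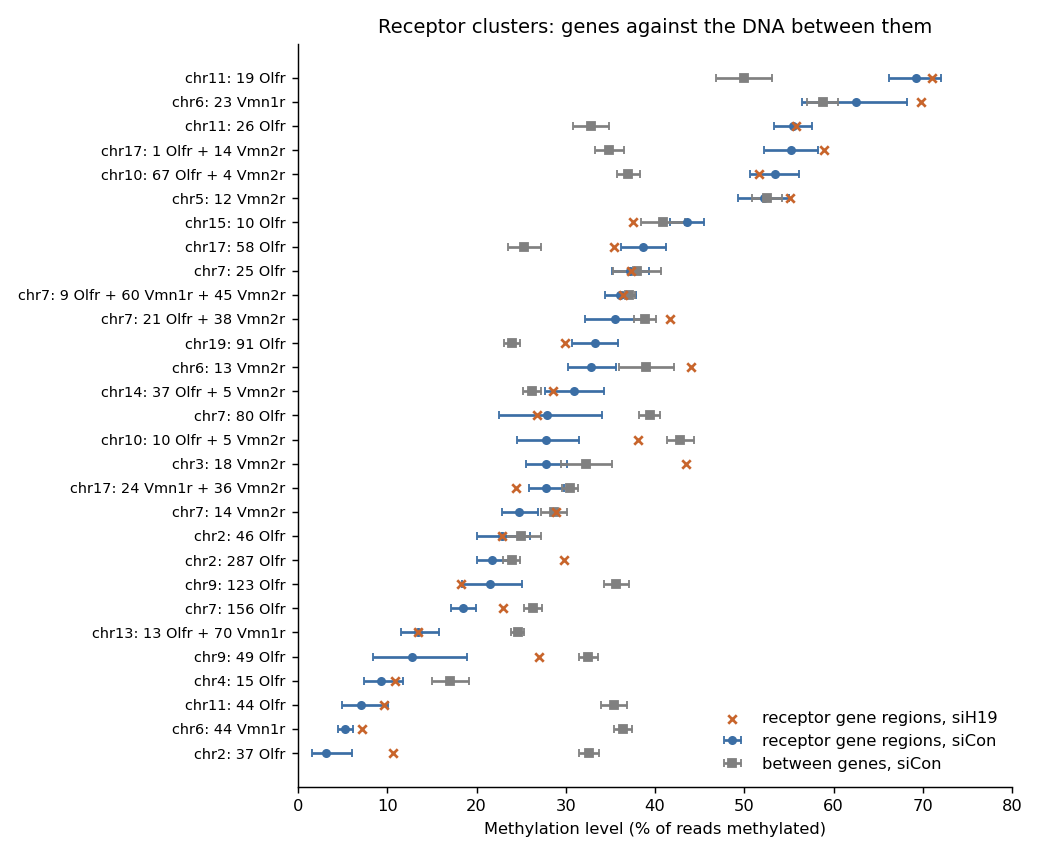
Methylation level (x axis, % of reads methylated) of the 29 receptor clusters with at least 10 compared cytosines in receptor regions, 1 cluster per row, named by chromosome and gene content. Circles are receptor regions and squares the DNA between genes in siCon with Wilson 95% intervals, and crosses are receptor regions in siH19; receptor regions ran from 3.15% to 69.2% in siCon.

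Among the 115 receptor genes with at least 5 cytosines outside the sites (64 Olfr, 9 Vmn1r and 42 Vmn2r), the median gene level was 36.8% in siCon and 36.5% in siH19. Over all 24924 gene regions with as many cytosines, islands included, the medians were 23.7% and 23.9%. The siCon quartiles were 18.8% and 53.1%. By family the siCon medians were 35.0% for Olfr, 39.1% for Vmn1r and 38.3% for Vmn2r, an order other than that of the summed levels. Under 20% in siCon were 31 genes, and over 80% were 5. Of the 1988 cytosines, 25 lay in the regions of more than 1 receptor gene, which touched 3 of the 115 genes: the annotated span of Olfr643 covers that of Olfr641 and Olfr642.

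The 4 lowest genes were nearly unmethylated in both libraries. Olfr642 had 0 of 100 reads in siCon, which allows a level of up to 3.70% (Wilson), and 2.63% of 228 reads in siH19. Vmn1r4, in the island it shares with Nt5c3, had 0.710% and 0.509%. Olfr605 had 1.19% and 3.09%, and Olfr414 had 1.55% and 1.52%, both in their coding exons. The intervals of the libraries overlapped in each of these 4 genes.

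The 4 highest were Vmn2r78, with 95.4% and 82.4%, Olfr70 with 87.9% and 77.9%, Olfr225 with 87.0% and 85.0%, and Olfr1423 with 86.9% and 92.2%. In Olfr225, a receptor annotated as a polymorphic pseudogene, methylation was not uniform along the exon. In the stretch printed above, the first 4 of the capitalised CpGs had 92.0% or more of reads methylated on each strand in both libraries, except for 1 cytosine at 88.9% in siH19. The last capitalised CpG had 0 of 12 and 0 of 27 reads in siCon and 1 of 25 and 0 of 45 in siH19. The cells are of the C3H strain and the reference is a C57BL/6 genome, and whether the cells carry a given CpG was not tested here or for any other receptor gene. This bears on every level near 0, such as those of Olfr641, Olfr552, Olfr553, Olfr642 and Olfr605, because a C-to-T difference between strains reads as unmethylated.

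The genes with most cytosines outside the sites varied as widely. Among Olfr genes, Olfr1372-ps1, a pseudogene with 45 of its 47 cytosines in an island, had 29.8% and 25.6%. Olfr643 (43 cytosines) had 27.6% and 30.8%, Olfr56 (29) had 72.5% and 81.9%, and Olfr46 (25) had 54.3% and 45.3%. Olfr94 (24, all in an island and in the coding exon) had 59.9% and 65.9%, Olfr1152 (22, of which 20 in an island) had 34.6% and 44.9%, and Olfr275 (19) had 75.04% and 78.7%. Many of these cytosines lie in sequence that other genes share: 20 of the 29 of Olfr56 and all 47 of Olfr1372-ps1 are also in the region of another gene.

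Of the vomeronasal genes, Vmn1r88 (24 cytosines) had 44.5% and 41.8%, Vmn1r-ps29 (11) had 63.3% and 69.1% and Vmn1r86 (11) had 21.5% and 31.1%. Vmn2r-ps133 (50) had 61.6% and 64.2%, Vmn2r7 (38) had 34.6% and 49.3%, Vmn2r-ps26 (34) had 69.0% and 76.4%, and Vmn2r59 (32) had 24.4% and 29.5%. Apart from the 4 cytosines of Vmn1r88 in an exon, these vomeronasal cytosines were intronic or upstream, and 38 of 38 in Vmn2r7 and 49 of 50 in Vmn2r-ps133 were soft-masked repeats. The 14.7-point gap between the summed levels of Vmn2r7 shrank to 0.673 points (-2.60 to 3.95) when each cytosine was compared with itself, because the libraries placed their reads on different cytosines. Summed levels of a gene therefore cannot be read as a difference between the libraries.

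The question of the comparison was whether knockdown of H19 went with a different methylation of these genes. For each set the difference was computed as siH19 minus siCon per cytosine, weighted by the depth of both libraries. Over all 1988 receptor cytosines it was 0.374 points (-0.104 to 0.852), and over all 1795680 autosomal cytosines outside the sites it was 0.223 points (0.212 to 0.234). Many places and sequence classes, which overlap, were looked at, with no adjustment for their number. Those named next were picked because their interval left out 0. The interval lay above 0 in islands, at 1.205 points (0.302 to 2.11), and there also for cytosines in no other gene, at 1.53 points (0.231 to 2.83). It lay above 0 for Olfr upstream DNA, at 2.79 points (0.370 to 5.20), Olfr start-site windows, at 1.88 points (0.468 to 3.28), Olfr genes other than protein-coding, at 1.76 points (0.223 to 3.31), and other Olfr exon sequence, at 1.22 points (0.0355 to 2.40). It lay below 0 for the 10 cytosines upstream of Vmn2r genes, at -12.1 points (-23.5 to -0.616). By family it was 0.336 points for Olfr (-0.321 to 0.993), 0.2996 for Vmn1r (-0.719 to 1.32) and 0.473 for Vmn2r (-0.422 to 1.37), each interval including 0. With reads summed instead, the differences were 1.27 points for all receptors, 1.79 for Vmn1r and 4.72 for Vmn2r, beyond these intervals.

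The shares of changed single cytosines in the receptors were close to those of all autosomal cytosines. A strongly changed cytosine had an unadjusted p under 0.05 (two-sided Fisher's exact test) and a difference of at least 33 points. Outside the sites 20 of 1988 receptor cytosines met this (1.01%), 13 higher and 7 lower in siH19, against 0.958% of all autosomal cytosines outside the sites. At an unadjusted p under 0.05 alone there were 52 (2.62%), against 2.48%. After Benjamini-Hochberg adjustment over all compared autosomal cytosines none passed 0.05, against 0.0389% of all. The receptor set differed from all cytosines outside the sites in median depth, at 18 and 17 against 24 and 24. It also differed in the share under 10% methylated in siCon, at 37.0% against 47.9%. What this did to the shares of changed cytosines was not tested. Of the 20, 10 were soft-masked and 5 lay in 31 bases that occur more than once in the genome. The opposite strand was measured at 10 of them, of which 4 differed in the same direction and 0 were strongly changed.

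The 4 with the lowest p in the direction of siH19 being higher were as follows. In an island of Olfr1152 (chr2:87872950, minus strand) 0 of 30 reads were methylated in siCon and 18 of 54 in siH19 (adjusted p = 0.0586, Fisher's exact test), while the plus strand of this CpG had 37.5% and 34.5%. In an intron of Olfr762-ps1 (chr17:38314631, minus strand) the reads were 0 of 16 and 22 of 44 (adjusted p = 0.0640, Fisher's exact test), and the plus strand had 0% and 20%. The others were upstream of Olfr879-ps1, with 4 of 14 and 14 of 17, and in an intron of Vmn2r118, with 0 of 24 and 5 of 15. The bases around the Olfr879-ps1 cytosine occur 15483 times in the genome, so the source of its reads is uncertain.

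In the other direction Vmn2r91 had 21 of 28 and 7 of 22 reads in an intron, where the opposite strand had 45.8% and 58.5%. Vmn1r88 had 6 of 8 and 8 of 38, in bases that occur 47 times. Vmn2r78 had 8 of 9 and 6 of 19, and Olfr427 had 10 of 17 and 0 of 6. The adjusted p of these 4 was between 0.418 and 0.944.

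Inside the restriction sites 49 of 3378 receptor cytosines were strongly changed (1.45%), 23 higher and 26 lower, against 1.92% of all autosomal site cytosines, and 4 had an adjusted p under 0.05, against 0.483% of all. The 2 strongly changed in each direction with the lowest p follow. The first was in an exon of Olfr1152, with 49 of 76 reads in siCon and 10 of 60 in siH19 (Fisher's exact test, adjusted p = 0.000136), and the next in an intron of Olfr1398-ps1, with 24 of 52 and 45 of 51 (adjusted p = 0.00747). The others were in the coding exon of Olfr1500, with 47 of 53 and 14 of 30 (Fisher's exact test, adjusted p = 0.0319), and an intron of Vmn2r77, with 10 of 19 and 24 of 24 (adjusted p = 0.0608), which did not pass 0.05. The opposite strand of these 4 sites had 26.3% in siCon and 54.1% in siH19 in Olfr1152, 90.5% and 66.7% in Olfr1398-ps1, 74.1% and 92.6% in Olfr1500, and 17.9% and 17.2% in Vmn2r77. Each of these sites had fragments of 40 to 220 bases on both sides or on neither, so overhang and filled-in reads cannot be told apart there.

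Gene regions were tested by an exact stratified test in which each cytosine is compared with itself, with Benjamini-Hochberg adjustment over all 24924 autosomal gene regions with at least 5 cytosines. A region was called when its adjusted p was under 0.05 and the libraries differed by 10 points or more. Of the 115 receptor regions 3 were called, Olfr464, Vmn2r78 and Olfr650-ps1, against 0.337% of all regions, and all 3 were lower in siH19, against 0.136% of all regions called in that direction. They had 5, 8 and 8 cytosines, and among the 72 receptor regions with 5 to 10 cytosines these 3 compare with 1.23% called among all regions of that size. At an unadjusted p under 0.05 in the same test there were 13 of 115 (11.3%), against 16.2%. Receptor regions had a median of 9 cytosines and all regions 49, so these shares come from tests of unlike size. In all, 59 receptor regions were higher and 56 lower in siH19, with a median difference of 0.184 points, beside 0.118 over all regions.

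In Olfr464 (chr11:87913268-87920967), 116 of 303 reads were methylated in siCon and 38 of 251 in siH19, a difference of -18.2 points (-24.9 to -11.4, adjusted p = 0.000113 in the exact stratified test). All 5 cytosines were lower in siH19. From the start of the printed stretch, the first CpG had 6 of 79 reads in siCon and 1 of 38 in siH19, the second 62 of 78 and 18 of 38, and the triplet CpG 34 of 79 and 5 of 38. The last CpG, measured on both strands, had 10 of 40 and 12 of 87 on the plus strand and 4 of 27 and 2 of 50 on the minus strand. The largest differences were at the second CpG and at the triplet. Both of these CpGs lie in soft-masked sequence, and each was compared on the plus strand only.

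In Vmn2r78 (chr7:86915094-86955312), a type 2 vomeronasal receptor, the 8 cytosines lay in introns. Methylated reads were 146 of 153 in siCon and 225 of 273 in siH19, a difference of -11.9 points (-17.9 to -6.01, adjusted p = 0.0117 in the exact test), with 7 of 8 cytosines lower. A cytosine of the first stretch had 55 of 57 and 61 of 71 reads and its opposite strand 10 of 10 and 36 of 46. The 1 cytosine that was higher in siH19 had 4 of 5 and 22 of 23. In the soft-masked second stretch the cytosines had 8 of 9 and 6 of 19, and 8 of 9 and 12 of 19. In Olfr650-ps1 (chr7:104203437-104207865), annotated as a polymorphic pseudogene, 43 of 100 and 47 of 181 reads were methylated, a difference of -14.7 points (-24.1 to -5.33, adjusted p = 0.0422 in the exact test). Its adjacent CpGs in the first stretch had 6 of 16 and 2 of 36, and 4 of 16 and 0 of 36, on the minus strand. On the plus strand the same CpGs had 4 of 16 and 4 of 26, and 0 of 16 and 0 of 26. Of its 8 cytosines 5 were lower and 1 was higher.

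Cytosines of the same fragment are read by the same molecules, as the equal depths of the Olfr464 cytosines show, while the test treats them as separate. With 1 cytosine per strand and 200 bases, an alternative chosen after seeing the data, none of the 115 receptor regions was called. The difference was then -8.84 points in Olfr464 (3 cytosines, adjusted p = 0.634 in the exact test), -17.3 points in Vmn2r78 (3 cytosines, adjusted p = 0.576 in the exact test) and -20.1 points in Olfr650-ps1 (4 cytosines, adjusted p = 0.524 in the exact test). It was thus smaller in Olfr464 and larger in the others, on fewer reads. The cytosine kept was the first by position. In Olfr464 this dropped the second CpG of the printed stretch and the triplet CpG, which had the largest differences. Over all 24917 gene regions tested this way 3 were called. With at least 20 reads per cytosine 3 regions were again called, Olfr464 together with Olfr1152 and Olfr94, both higher in siH19, so that only Olfr464 was shared. The next region in order, Olfr1152, had a difference of 6.91 points (2.75 to 11.1) and an adjusted p of 0.0543.

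**Figure D4:**
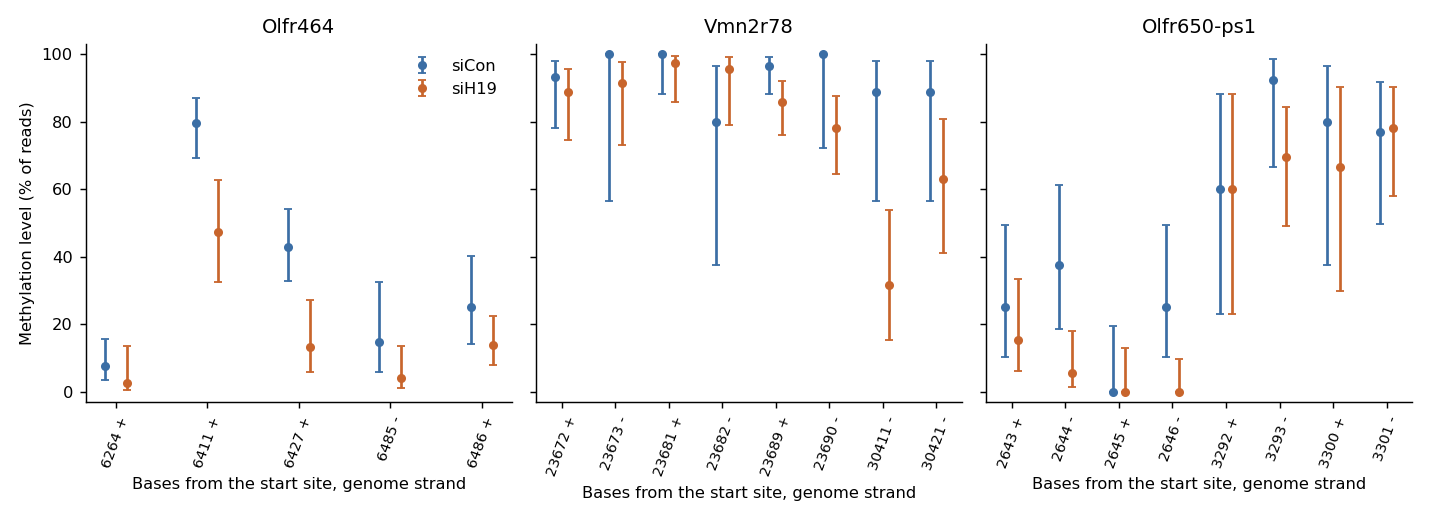
Methylation level (y axis, % of reads) of each cytosine outside restriction sites in Olfr464, Vmn2r78 and Olfr650-ps1, ordered by distance from the start site (x axis, bases, with the genome strand), in siCon (blue) and siH19 (orange). Bars are Wilson 95% intervals of the reads; all 5 cytosines of Olfr464 were lower in siH19, by up to 32.1 points.

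**Figure D5:**
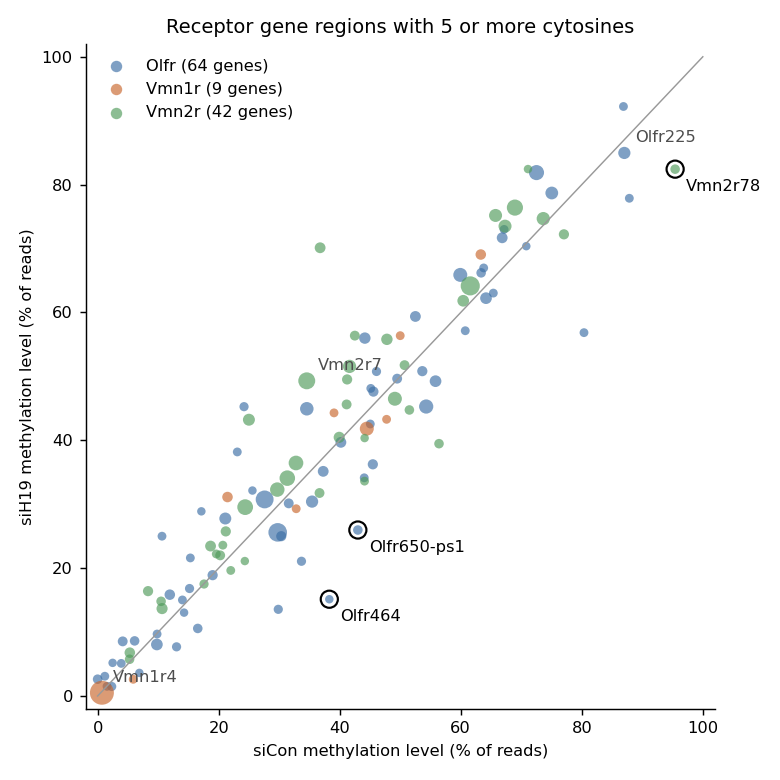
Methylation level of the 115 receptor gene regions with at least 5 cytosines outside restriction sites, siCon (x axis, % of reads) against siH19 (y axis, % of reads), coloured by family, with larger points for more cytosines. The line marks equal levels and rings mark the 3 called regions, which lie below it.

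Reads summed over a region gave a different picture. Fisher's exact test on summed reads called 12 of the 115 regions, 7 of them higher in siH19, beside 6.76% of all regions. Among these Vmn2r-ps34 had summed levels 33.4 points apart, while the stratified test gave it an adjusted p of 1.00. Around the TSS, where 12 receptor genes had at least 5 cytosines outside the sites, none was called by either test, against 0.466% of all 18871 windows in the stratified test. At an unadjusted p under 0.05 in the exact test there were 2, Olfr762-ps1 with 8.86 points (adjusted p = 0.0667) and Olfr1372-ps1 with 4.40 points (adjusted p = 0.0756).

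The genes that carry the odour signal or control receptor choice were a list of 22. It holds Gnal, the G protein of olfactory neurons, the cyclase Adcy3, the channel subunits Cnga4 and Cngb1, the receptor transporters Rtp1 and Rtp2, the choice regulators Lhx2, Ldb1, Emx2 and Ebf1, the vomeronasal channel Trpc2 and others. Of the 21 tested, 11 were higher and 10 lower in siH19, with a median difference of 0.0555 points, and 0 were called, against 0.337% of all regions. Emx2, a homeobox factor, had an adjusted p of 1.02e-05 with a difference of 6.42 points, under the 10 points a call required, and 3.66% of all regions passed that p with no minimum difference. The receptor transporters had 80.3% and 87.9% (Rtp1) and 88.8% and 89.6% (Rtp2). The channels ranged widely, with 73.3% and 76.9% in Cnga4, 67.7% and 74.98% in Trpc2, 49.0% and 48.3% in Cngb1 and 19.4% and 19.1% in Ano2. Atf5, Ldb1 and Kdm1a were under 10% in both libraries. All 50 cytosines of Atf5 and 57 of the 62 of Kdm1a lay in the start-site window. Gnal had 18.1% and 18.2%, Lbr 13.6% and 10.1%, Gnai2 12.6% and 8.52%, and Ric8b 32.6% and 37.4%.

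At the TSS 15 genes of the list were tested, with a median siCon level of 3.16%, and 1 was called, against 0.466% of all windows. Rtp2 had 87 of 138 reads in siCon and 87 of 105 in siH19 over 7 cytosines, 20.1 points higher (exact stratified test, adjusted p = 0.0263). With 1 cytosine per strand and 200 bases the difference was 36.2 points on 2 cytosines, with an adjusted p of 0.580 in the exact test. Emx2 had 23.3% and 32.1%, 8.54 points higher (exact stratified test, adjusted p = 0.000394). Lhx2 had -2.74 points (adjusted p = 0.0150) and Ldb1 had 0.636 points (adjusted p = 0.0213) in the exact test, both too small for a call. With no minimum difference 6.27% of all windows had an adjusted p under 0.05.

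Sequence repeated elsewhere in the genome limits all these values. The 31 bases centred on the cytosine occurred more than once for 750 of the 1988 receptor cytosines outside the sites (37.7%), against 12% of all compared autosomal cytosines. In siCon these had 34.9% and the 1238 with unique surroundings had 32.1%. In siH19 the values were 37.5% and 32.7%. The difference between the libraries was 0.0447 points (-0.519 to 0.608) at unique surroundings and 1.08 points (0.183 to 1.97) at repeated ones. By family the repeated share was 27.8% for Olfr, 31.6% for Vmn1r and 54.2% for Vmn2r.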

How the data were processed

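Reduced representation bisulfite libraries of siCon and siH19 myotubes were used, 1 per group, with groups taken from the labels. The authors ran a service provider's Python pipeline built on Bismark with its non-directional option, removed filled-in nucleotides at the calling step and took the share of C among C and T calls. Per the labels, bcl2fastq 1.8.4 was used and the build was mm10. The deposited files hold, for each CpG cytosine and strand, an other value (text with the methylated and total read counts and a percent) and a score, the methylated fraction times a constant and rounded down. The deposited score matched the parsed read counts in 100% of entries and was used for nothing else. Values were not normalized between libraries, and removal of duplicates is not given in the sources used here. All 10709359 entries on the autosomes, X and Y lay on CpG cytosines of GRCm38, and coordinates are 1-based on that build.

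Comparison on the 19 autosomes required 5 or more reads per cytosine in both libraries, leaving out 12 receptor genes elsewhere. Gene models were those of the basic GENCODE vM21 set. Islands were stretches of at least 200 bases whose GC share was 50% or more and whose CpG count was 0.6 or more of that expected from base content. Single cytosines had Fisher's exact test (two-sided), and gene regions and windows of 1 kb on either side of the TSS by an exact stratified test with 1 stratum per cytosine, with Benjamini-Hochberg adjustment over all features of the kind. Differences were weighted per cytosine by the product over the sum of the depths. Scripts used Python 3.11.15, numpy 2.4.6, pandas 2.3.3, numba 0.67.0 and scipy 1.17.1 and were tested on simulated data. The members, lists and tests were chosen with earlier results of these data known.

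Named genes were the 8 Olfr, 4 Vmn1r and 4 Vmn2r genes with most cytosines outside the sites, the 4 highest and 4 lowest in siCon, the called regions, the 4 genes with most island cytosines, and the strongly changed cytosines with the lowest p (4 per direction outside the sites, 2 inside). The triplet genes were all those compared there outside the sites. Olfr642, Olfr169 to Olfr171 and Olfr47 as site examples, Vmn2r-ps34, Olfr762-ps1 and the genes named from the signalling list were chosen after their values were seen. Alternatives were other read minimums, summed strands, other cytosine sets, thresholds, tests and weightings.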

Additional observations from a re-analysis of the deposited data

How the results depend on the processing

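No paired analysis was possible because there was 1 library per group. Strongly changed receptor cytosines outside the sites, 20 as reported, numbered 10 with at least 10 reads and 2 with at least 20, 13 with strands summed, 10 without soft-masked cytosines and 69 with site cytosines, and 0 at an adjusted p under 0.05, whether adjusted over all cytosines or over those outside the sites alone. Called gene regions, 3 as reported, numbered 12 when reads were summed for Fisher's exact test, 0 with at least 10 cytosines, 1 with strands summed, 1 without soft-masked cytosines and 0 with 1 cytosine per strand and 200 bases (added after seeing the data). The called regions had under 10 cytosines, so none could be tested at that minimum. With strands summed Olfr464 and Olfr650-ps1 had under 5 values and were not tested. Without soft-masked cytosines Olfr464 was not tested, and Vmn2r78 had -7.44 points (adjusted p = 0.162, exact test). For the rest the cause was not tested. The other 8 settings gave 2 or 3, not always the reported genes. With site cytosines the differences of Vmn2r78 and Olfr650-ps1 were -5.39 and -7.93 points and no longer called. No start-site window of a receptor was called under any of the 13 alternatives, of which 1 cytosine per strand and 200 bases was added after seeing the data.

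The difference between the libraries moved beyond its interval with reads summed (1.27 points over all receptors, 1.79 for Vmn1r, 4.72 for Vmn2r) and in start-site windows alone (1.88 for Olfr, -3.42 for Vmn2r). The siCon level depended on the cytosines kept. Over all receptors it was 35.2% as an unweighted mean, 31.3% in protein-coding genes, 35.3% in gene bodies, 17.8% in start-site windows, 34.7% without Vmn1r4 (added after seeing the data), 30.6% with at least 20 reads, 29.8% without soft-masked cytosines, 47.6% with site cytosines, 34.4% outside other genes and 32.1% without repeated 31 bases. For Olfr the values were 34.8% (bodies), 24.6% (windows), 33.2% (20 reads), 48.6% (site cytosines) and 32.7% (outside other genes); its unweighted mean was 34.6%. For Vmn1r they were 17.0% (unweighted), 12.2% (protein-coding), 24.3% (bodies), 2.95% (windows), 23.4% (without Vmn1r4), 12.8% and 10.9% (10 and 20 reads), 8.69% (no soft-masked), 37.9% (site cytosines), 23.4% (outside other genes) and 11.7% (no repeated bases). For Vmn2r they were 41.8% (unweighted), 34.3% (protein-coding), 32.4% (windows), 39.4% (10 reads), 30.3% (no soft-masked), 49.3% (site cytosines) and 41.2% (outside other genes). In start-site windows Vmn1r4 held 81 of the 107 Vmn1r cytosines and 81 of the 372 cytosines of all receptors. No cytosine of 1342 receptor genes was compared.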
